A study of Mus musculus with 4 samples.

Results

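The 78 genes described here encode mitochondrial ribosomal proteins. They are the protein-coding entries of the expression table whose symbol is Mrpl or Mrps followed by a number and at most 1 letter. This rule uses no measured value, but the members were chosen with earlier results of these data known. They were 78 of the 18200 genes in the table, and all 78 were above the filter of a mean of 1 FPKM (a fragment number divided by the gene's length and by the depth of its library), which 8750 genes passed. The study sequenced RNA from polysomes, the fraction of messenger RNA that carries several ribosomes, of wild-type mouse ADSCs, which the series title places among mesenchymal stem cells. There were 4 libraries, 2 labelled Scrambled (a control shRNA) and 2 labelled IFIT1 knockdown (an shRNA against Ifit1), and replicate 1 of each group was batch 1 and replicate 2 batch 2. No other allele, agent, time or animal age is given in the labels, nor whether the replicates were separate cultures, so p-values reflect spread among 4 libraries that may be technical. Total RNA was not among the libraries, so a change in the amount of a messenger RNA and a change in its loading with ribosomes cannot be told apart, nor can fewer cells of a type and less RNA per cell.

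Mitochondria keep a small genome of their own, and the ribosome that translates it is built inside the organelle from mitochondrial ribosomal RNA and from proteins that are all encoded in the nucleus. The messenger RNAs of these proteins are translated by cytosolic ribosomes, which is where polysome RNA captures them, and the proteins are then imported. Many of the proteins, here called bacterial-type, have a counterpart in the bacterial ribosome, while others are found only in mitochondria. Together they form a large subunit, which joins amino acids and holds the exit tunnel, and a small subunit, which reads the messenger RNA. By structure Mrps30 and Mrps18a belong to the large subunit despite their names, and Mrps36 is now known as a component of the 2-oxoglutarate dehydrogenase complex and was given no role. That left 51 large-subunit genes (30 bacterial-type and 21 mitochondria-specific) and 26 small-subunit genes (16 and 10).

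Ifit1, the gene named as the target, went against the labels: its FPKM was 1.93 and 1.91 under the label scrambled and 13.9 and 14.8 under the label knockdown, a 7.47-fold difference (log2 2.39, SE 0.04, limma adjusted p = 1.6e-04). Higher and lower below therefore refer to the label knockdown relative to the label scrambled, and libraries are listed in the order scrambled 1, scrambled 2, knockdown 1 and knockdown 2. Depth, recovered from the FPKM values, was between 32197315 and 39449375 fragments per library, and the 78 genes held 255822, 320489, 363765 and 325896 of them. Single genes of the set had between 624 and 33800 fragments per library. Of the mesenchymal stromal markers, all 6 tested of 10 in the table were higher, from a summed 41.7 and 41.1 FPKM to 97.7 and 96.8. Nt5e and Pdgfra were near 0, and Thy1 went from 3.71 and 3.68 to 31.0 and 30.3 FPKM. The summed adipocyte markers went from 5.65 and 5.67 to 2.43 and 2.48 FPKM, with Pparg and Fabp4 lower and Plin1 at or near 0. Epithelial and mesothelial markers went from 168 and 164 to 98.9 and 99.7 FPKM, nearly all of it Krt19, with 2 members higher and 1 lower of 4 tested and Epcam, Cdh1 and Upk3b near 0. Endothelial markers summed to 1.69, 1.61, 4.70 and 4.47 FPKM, with Egfl7 higher and Pecam1 and Tek near 0, and leukocyte markers summed to 0.439, 0.401, 0.424 and 0.449 FPKM. The part of these differences in the results below was not tested.

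The mitochondrial ribosomal protein genes did not move as one. In the libraries labelled knockdown 28 of the 78 were higher, 19 were lower and 31 did not pass (limma on log2(FPKM + 1), adjusted p below 0.05 over 8750 genes). That is 60.3% past the threshold, against 68.7% of all tested genes. The share that was higher was 35.9%, against 27.4% of all tested genes, and the share that was lower was 24.4%, against 41.2%. The median log2 change of the 78 was -0.02 and that of all tested genes was also -0.02 after rounding, with quartiles of -0.20 and 0.34 against -0.50 and 0.25. Within batch 1 the median was 0.17 (all tested genes -0.13) and within batch 2 it was -0.02 (all tested genes -0.22). With 1 library left out, the median of the 78 lay between -0.0422 and 0.112, and that of all tested genes between -0.17 and -0.10. With each library centred on its median, which moved the median of all tested genes to 0.15, 31 were higher and 13 lower, and of all tested genes 32.4% were then higher and 34.7% lower. Large changes were rare: 1 member, Mrpl33, had a log2 change of at least 1 in either direction, where 8.77% of all tested genes did. In 34 of the 47 genes past the threshold, the SE, which limma moderates with the spread of all tested genes, was below the counting SE. Over the 47, the median SE was 0.019 and the median counting SE 0.024. For Mrps2 the SE was 0.020 and the counting SE 0.043, so the SEs and p-values printed can understate even counting error. The same 47 genes passed with SEs not allowed below the counting error.

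**Figure D1:**
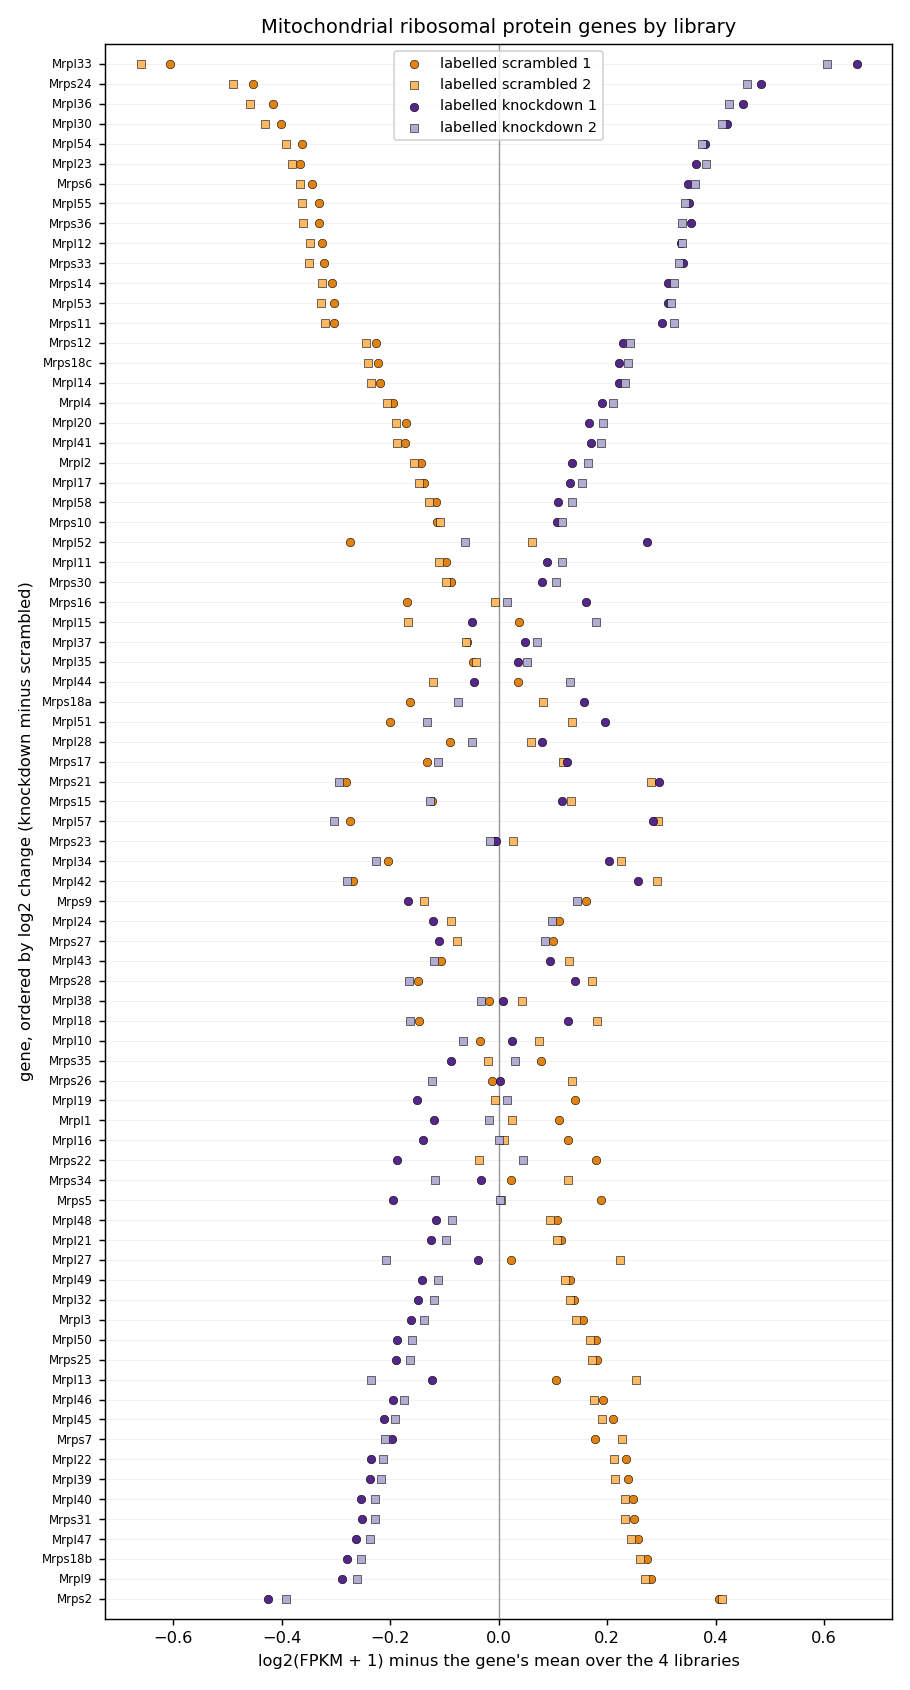
Values of the 78 genes in each library, as log2(FPKM + 1) minus the gene's mean over the 4 libraries (x axis), with 1 line per gene ordered by log2 change (y axis), circles for replicate 1 and squares for replicate 2. At the top and bottom the libraries of a label lie together and far from the other label. In the middle, most genes that did not pass have scrambled 1 beside knockdown 2 and scrambled 2 beside knockdown 1.

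The promoters of the 3 genes that rose most and the 3 that fell most are shown so that the starts of genes that moved apart can be compared. They come from RefSeq on GRCm38.p6, 250 bases before to 50 after the start site, and are printed in the direction of transcription. Capitals mark matches, on either strand, to 4 motifs of factors linked to genes for mitochondrial proteins or to promoters rich in G and C: GCGCATGC (NRF1), CCGGAAG (the ETS family, to which GABP belongs), AAGATGGCG (YY1) and GGGCGG (Sp1). Positions count the start site as +1. The genes that rose were Mrpl33 (chr5:31613701-31614000, plus strand), Mrps24 (chr11:5707652-5707951, minus strand) and Mrpl36 (chr13:73330759-73331058, plus strand).
Mrpl33: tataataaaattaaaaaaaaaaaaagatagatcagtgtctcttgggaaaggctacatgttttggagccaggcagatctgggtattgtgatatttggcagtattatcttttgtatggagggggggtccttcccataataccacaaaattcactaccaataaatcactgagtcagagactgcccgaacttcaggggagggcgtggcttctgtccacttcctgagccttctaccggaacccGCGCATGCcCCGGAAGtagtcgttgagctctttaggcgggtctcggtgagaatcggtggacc
Mrps24: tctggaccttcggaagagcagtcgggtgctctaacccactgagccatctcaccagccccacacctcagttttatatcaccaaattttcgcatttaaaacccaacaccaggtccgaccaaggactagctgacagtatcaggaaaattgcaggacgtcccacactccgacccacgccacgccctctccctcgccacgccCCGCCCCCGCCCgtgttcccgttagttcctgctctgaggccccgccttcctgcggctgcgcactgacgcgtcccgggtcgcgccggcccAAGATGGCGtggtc
Mrpl36: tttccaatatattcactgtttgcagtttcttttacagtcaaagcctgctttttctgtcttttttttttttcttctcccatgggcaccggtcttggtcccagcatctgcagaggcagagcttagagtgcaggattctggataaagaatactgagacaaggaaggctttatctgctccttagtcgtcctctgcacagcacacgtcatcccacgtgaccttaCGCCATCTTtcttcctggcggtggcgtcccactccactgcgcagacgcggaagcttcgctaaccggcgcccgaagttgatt
The genes that fell were Mrps2 (chr2:28467816-28468115, plus strand), Mrpl9 (chr3:94443086-94443385, plus strand) and Mrps18b (chr17:35916391-35916690, minus strand).
Mrps2: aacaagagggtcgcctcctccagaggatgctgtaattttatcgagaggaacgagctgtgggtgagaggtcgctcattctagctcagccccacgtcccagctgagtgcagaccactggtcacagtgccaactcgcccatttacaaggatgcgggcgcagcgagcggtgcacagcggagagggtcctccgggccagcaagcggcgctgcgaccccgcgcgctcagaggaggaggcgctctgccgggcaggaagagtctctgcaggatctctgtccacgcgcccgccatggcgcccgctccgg
Mrpl9: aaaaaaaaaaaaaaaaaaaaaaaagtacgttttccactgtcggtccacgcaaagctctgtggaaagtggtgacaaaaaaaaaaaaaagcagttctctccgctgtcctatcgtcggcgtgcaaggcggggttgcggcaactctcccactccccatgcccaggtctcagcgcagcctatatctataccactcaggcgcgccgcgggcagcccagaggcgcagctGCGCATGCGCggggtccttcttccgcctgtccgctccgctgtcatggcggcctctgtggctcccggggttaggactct
Mrps18b: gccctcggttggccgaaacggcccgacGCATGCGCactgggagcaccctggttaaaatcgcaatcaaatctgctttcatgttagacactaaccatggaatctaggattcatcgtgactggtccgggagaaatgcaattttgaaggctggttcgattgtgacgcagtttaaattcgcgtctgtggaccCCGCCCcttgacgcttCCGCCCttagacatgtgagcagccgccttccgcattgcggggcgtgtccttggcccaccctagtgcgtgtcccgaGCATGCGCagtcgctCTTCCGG

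No motif was common to the 3 promoters of either group. Mrpl33 held the NRF1 letters at -12 and the ETS letters at -3. Mrps24 held the YY1 letters at 37 and the reverse of the Sp1 letters at -53 and -47, and Mrpl36 the reverse of the YY1 letters at -31. Mrpl9 held the NRF1 letters on both strands, in overlapping matches at -28 and -26. Mrps18b held them in reverse at -223 and 29, beside ETS letters at 44 and Sp1 letters at -63 and -47, and Mrps2 held none of the 4. A RefSeq promoter was found for 69 of the 78 genes. The NRF1 letters were in 11.6% of these, against 6.86% of the 7114 tested genes with a promoter and 3.05% of all 27025 genes with one. The ETS letters were in 37.7% (23.6% of tested and 9.93% of all genes), and the YY1 letters in 11.6% (4.23% and 1.64%). The Sp1 letters were in 49.3%, against 72.4% of tested and 38.2% of all genes. By direction, the NRF1 letters were in 2 of 26 genes that rose, 5 of 18 that fell and 1 of 25 that did not pass. The YY1 letters were in 5 of 26, 0 of 18 and 3 of 25, and the ETS letters in 7 of 26, 5 of 18 and 14 of 25. These matches describe the letters only and were not tested.

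Bacterial-type proteins of the large subunit made up 5 of the 8 largest increases. Of these genes 13 of 30 rose (43.3%, against 27.4% of all tested genes), 7 fell (23.3%, against 41.2%) and 10 did not pass. Their median log2 change was 0.00. Mrpl33, the counterpart of bacterial L33, was at 127, 122, 306 and 294 FPKM. Its means were 124 ± 3.26 and 299.99 ± 8.01 FPKM (SD, n = 2), a 2.42-fold rise (log2 1.27, SE 0.03, adjusted p = 1.7e-04). The groups lay far apart, and the difference was 1.27 in batch 1 and 1.27 in batch 2. Mrpl36, the counterpart of bacterial L36 and one of the smallest proteins of the particle, was at 25.1, 24.4, 46.6 and 45.8 FPKM, a 1.87-fold rise. Mrpl30 was at 43.7, 42.8, 78.0 and 77.5 FPKM, 1.80-fold higher. Both genes had their 2 libraries of each label close together and no overlap between labels. The labels overlapped in 0 of the 47 members and 0 of the 6009 tested genes past the threshold, so this adds nothing to the test. Mrpl23, whose protein lies at the exit of the tunnel through which new chains leave, was at 56.0, 55.4, 93.5 and 94.7 FPKM, 1.69-fold higher. Mrpl55, the counterpart of bacterial L31, was at 25.2, 24.6, 41.0 and 40.8 FPKM, 1.64-fold higher.

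Mrpl12, which forms the flexible stalk that recruits translation factors, had the highest level of all 78 genes in every library. It was at 552, 543, 873 and 875 FPKM, a 1.60-fold rise (log2 0.67, SE 0.02, adjusted p = 1.8e-04). Mrpl10, which anchors that stalk, did not pass, at 76.1, 82.2, 79.3 and 74.5 FPKM. Mrpl11, at the stalk's base, rose 1.16-fold (log2 0.21). The stalk genes therefore had unlike values in the same libraries. Mrpl20, next after Mrpl54 in mean level over the 4 libraries, was at 323, 319, 409 and 416 FPKM, 1.28-fold higher (log2 0.36). The smallest change past the threshold, that of Mrpl35, did not hold in every setting. It had a log2 change of 0.09 (adjusted p = 0.020) and, with batch as a replicate block, adjusted p = 0.14. It did not pass either when 1 library was left out, whether scrambled 1, scrambled 2, knockdown 1 or knockdown 2 (adjusted p = 0.19, 0.17, 0.060 and 0.084).

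Among the 7 bacterial-type large-subunit genes that fell, Mrpl9 fell most. It was at 159, 158, 107 and 109 FPKM, 0.681 of the scrambled level (log2 -0.55, SE 0.02, adjusted p = 2.3e-04), with the groups well apart. Mrpl47 and Mrpl22, which like Mrpl23 lie around the exit tunnel, fell where Mrpl23 rose. Mrpl47 was at 51.4, 50.9, 35.5 and 36.2 FPKM (log2 -0.50), and Mrpl22 at 50.83, 50.04, 36.43 and 37.00 FPKM (log2 -0.45). Genes of this one region thus had changes of both signs in the same libraries. Mrpl13, chosen after its values were seen for the widest spread among the genes past the threshold, was at 291, 322, 248 and 229 FPKM (log2 -0.36, adjusted p = 0.026). It did not pass with batch as a replicate block (adjusted p = 0.085), after median-centring (adjusted p = 0.071) or without scrambled 2, knockdown 1 or knockdown 2 (adjusted p = 0.074, 0.081 and 0.13).

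The 21 mitochondria-specific genes of the large subunit were split about evenly, with 6 higher, 7 lower, 8 not past and a median log2 change of -0.02. These shares were 28.6% higher and 33.3% lower, against 27.4% and 41.2% of all tested genes. Mrpl54 was second of all 78 genes in mean level over the 4 libraries. It was at 294, 288, 493 and 491 FPKM, 1.69-fold higher (log2 0.75, SE 0.02, adjusted p = 1.7e-04). In both libraries labelled scrambled it lay below Mrpl20 and Mrpl28. Mrpl53 was next among the increases of this group, 1.55-fold. Mrpl58, derived from a release factor and able to free chains from stalled ribosomes, was at 37.5, 37.2, 44.0 and 44.8 FPKM, 1.19-fold higher. Among the decreases, Mrpl40 was at 65.3, 64.6, 45.8 and 46.6 FPKM (log2 -0.48) and Mrpl39 at 35.5, 34.9, 25.2 and 25.6 FPKM (log2 -0.45). Mrpl45, which places the ribosome at the inner membrane, was at 33.8, 33.3, 24.9 and 25.3 FPKM (log2 -0.40). In each of these genes the 2 libraries of a label lay close and the labels did not overlap, as in every gene past the threshold. Mrpl37, with a log2 change of 0.12 (adjusted p = 0.010), had adjusted p = 0.090 with batch as a replicate block. It did not pass after quantile normalization (adjusted p = 0.11) or without scrambled 1, scrambled 2 or knockdown 2 (adjusted p = 0.11, 0.12 and 0.051). Without scrambled 2, Mrps30 (log2 0.19) had adjusted p = 0.052.

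Of the 16 bacterial-type genes of the small subunit, 7 rose (43.8%, against 27.4% of all tested genes), 2 fell (12.5%, against 41.2%) and 7 did not pass. Their median log2 change was 0.10. Mrps24, the counterpart of bacterial S3 near the entry of the messenger RNA, was at 119, 116, 229 and 225 FPKM. Its means were 118 ± 2.16 and 227 ± 2.91 FPKM (SD, n = 2), a 1.93-fold rise (log2 0.94, SE 0.02, adjusted p = 1.7e-04). Mrps6 was at 168, 165, 272 and 274 FPKM, 1.64-fold higher. Mrps12, part of the decoding centre, was at 40.4, 39.8, 55.7 and 56.3 FPKM, 1.40-fold higher, and did not pass with the trend on annotated length taken out (log2 0.07, adjusted p = 0.051). Mrps2, the counterpart of bacterial S2, had the largest decrease of all 78 genes. It was at 14.2, 14.3, 7.56 and 7.76 FPKM, and its means were 14.3 ± 0.0395 and 7.66 ± 0.141 FPKM (SD, n = 2), 0.537 of the scrambled level (log2 -0.82, SE 0.02, adjusted p = 1.6e-04). Mrps2 and Mrps24 were thus apart by label in opposite directions. The other decrease was in Mrps7, a protein of the head of the small subunit, at 87.2, 90.3, 67.0 and 66.4 FPKM (log2 -0.41).

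The 10 mitochondria-specific genes of the small subunit had the lowest median, -0.13. Of them 1 was higher (10%, against 27.4% of all tested genes), 3 were lower (30%, against 41.2%) and 6 did not pass. Their summed level was 564, 575, 537 and 533 FPKM, lower in the libraries labelled knockdown. The summed levels of the other 3 groups were higher there, as in the 30 bacterial-type large-subunit genes at 2878, 2948, 3524 and 3460 FPKM. All FPKM of a library summed to 598188, 616504, 701936 and 680137, also higher there. The differences between these groups of genes were not tested. The 1 gene that rose was Mrps33, at 40.1, 39.2, 63.9 and 63.6 FPKM (log2 0.67). Mrps31 was at 37.7, 37.3, 26.4 and 26.8 FPKM (log2 -0.48), and Mrps25 fell by 0.35 on the log2 scale. Over both subunits, 20 of 46 bacterial-type genes rose and 9 fell, while 7 of 31 mitochondria-specific genes rose and 10 fell. That is 43.5% and 19.6% of the former and 22.6% and 32.3% of the latter, against 27.4% and 41.2% of all tested genes. Exonic length, described below, had a median of 1221 bases in the former and 1498 in the latter. Mrps36, with no role in the ribosome given here, was at 58.0, 56.9, 94.0 and 92.9 FPKM, 1.63-fold higher.

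**Figure D2:**
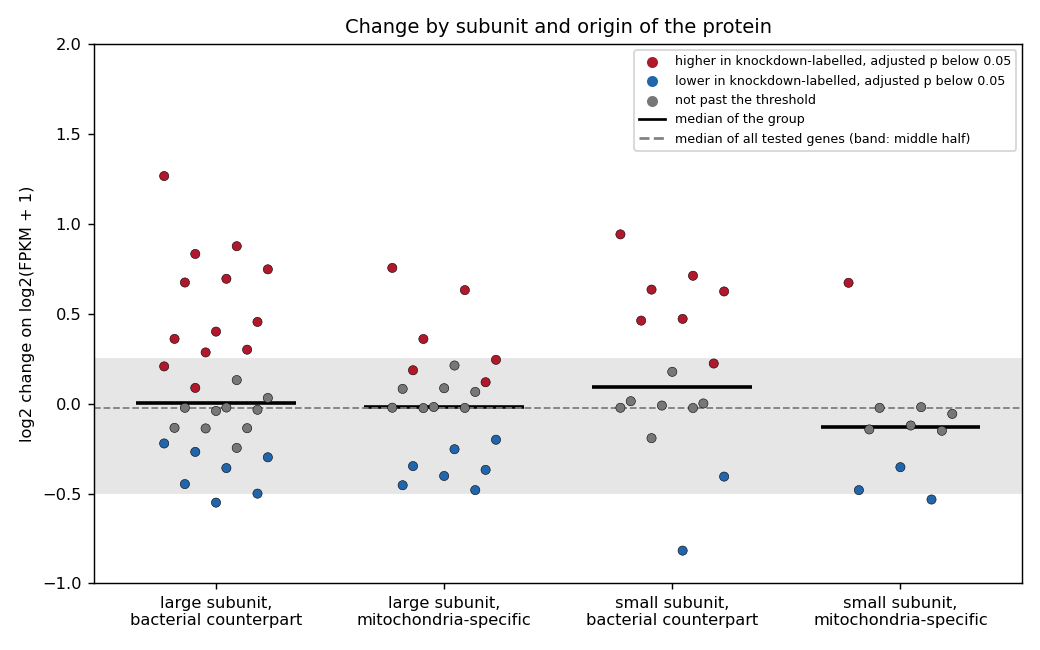
Log2 change (y axis, on log2(FPKM + 1), knockdown-labelled minus scrambled-labelled) of 77 genes by subunit and origin (x axis), with 1 point per gene coloured by direction, a bar at each group's median and a band for the middle of all tested genes. Mrps36 is not drawn. The bars lie at 0.00, -0.02, 0.10 and -0.13, and genes past the threshold in both directions are found in each group.

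The Mrps18 family shows the spread within close relatives. Its 3 genes encode related proteins that sit at different places of the particle, Mrps18c and Mrps18b in the small subunit and Mrps18a in the large. Mrps18c was at 215, 213, 294 and 297 FPKM (log2 0.46, SE 0.02, adjusted p = 3.0e-04). Mrps18b was at 37.5, 37.1, 25.2 and 25.7 FPKM (log2 -0.53, SE 0.02, adjusted p = 2.3e-04). Mrps18a was at 93.8, 111, 118 and 99.8 FPKM and did not pass (log2 0.08, SE 0.14, adjusted p = 0.74). Mrps18c was thus higher, Mrps18b lower, and the labels of Mrps18a overlapped. Mrps18c did not pass with a trend on gene length, described below, taken out (log2 -0.03 with recovered lengths, adjusted p = 0.27, and 0.06 with annotated lengths, adjusted p = 0.075).

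The 78 genes summed to 6520, 6868, 8137 and 7784 FPKM, higher under the label knockdown without overlap, which was 1.09%, 1.11%, 1.16% and 1.14% of all FPKM. The median gene was at 49.6, 50.5, 54.7 and 51.7 FPKM. Most of the proteins, which were not measured, are present once per ribosome, while the messenger RNA levels were uneven. The lowest gene, Mrpl1, was at 5.42, 5.04, 4.47 and 4.87 FPKM. Spearman's rho between mean FPKM and the length that the FPKM values imply was -0.74 over the 78 genes. Over 8683 tested genes it was -0.47, and the part of length in the levels was not tested. The 4 genes highest in mean level, Mrpl12, Mrpl54, Mrpl20 and Mrpl28, held 22.7%, 21.8%, 26.1% and 27.0% of the set's FPKM. Mrpl28 itself did not pass, at 310, 343, 348 and 319 FPKM. Both scrambled values of Mrpl20, 323 and 319 FPKM, lay between those of Mrpl28, and levels were not tested between genes. The order of the genes by level was largely shared, with Spearman's rho across the 78 genes of 0.99 between libraries of a label and 0.94 to 0.95 between labels, given as a description, since genes share a library and are not replicates.

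**Figure D3:**
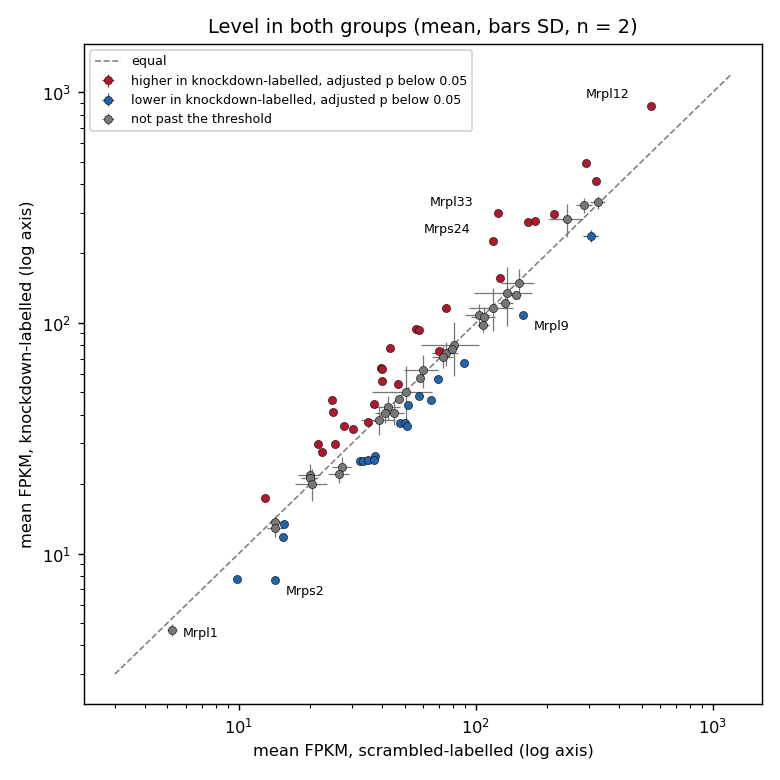
Mean FPKM of each gene in the libraries labelled scrambled (x axis, log scale) and knockdown (y axis, log scale), with bars for the SD (n = 2) and a dashed line of equality. Levels run from Mrpl1, near 5 FPKM, to Mrpl12 at 548 and 874 FPKM. Wide bars in both directions are found mostly on genes that did not pass.

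The 31 genes that did not pass were seldom flat. In 25 of them the labels overlapped, as in 2232 of the 2741 tested genes that did not pass and 2232 of all 8750. In these 25 the 2 libraries of a label differed more than libraries of unlike label and number. Mrpl42, Mrpl57, Mrps21 and Mrpl34 are named for this after their values were seen. Mrpl42 was at 65.5, 97.0, 94.7 and 64.9 FPKM, and Mrpl57 at 40.8, 60.9, 60.6 and 40.0 FPKM. Mrps21 was at 109, 161, 163 and 108 FPKM, and Mrpl34 at 101, 136, 134 and 99.1 FPKM. In all 4 genes, scrambled 1 matched knockdown 2 and scrambled 2 matched knockdown 1. Over the 31 genes the median gap on the log2 scale was 0.21 within a label, 0.04 between libraries of unlike label and number, and 0.22 within a batch. In the 47 genes past the threshold, the median gap within a label was 0.02. The difference between replicates 2 and 1 had opposite signs under the 2 labels in all 31 genes (Pearson's r = -0.999 across genes, a description), and r was -0.99 over the 78 and -0.83 over 8750 tested genes. Spearman's rho over the 78 was -0.66. In the 47 genes past the threshold r was -0.42 and rho 0.55, so the mirroring was less close there. The signs were still opposite in 36 of these 47 and in 4377 of the 6009 tested genes past the threshold. A wide gap within a label works against passing, so the contrast of the 31 with the 47 follows in part from the test. The pattern was not limited to the 31 genes: of 2741 tested genes that did not pass, 81.1% had unlike-numbered libraries closest and 0.328% had libraries of the same batch closest. Gapdh, a common reference gene, was at 275, 163, 161 and 268 FPKM. For genes of this kind the test compares means of unlike libraries, so a miss does not show equal levels. Neither the labels nor the replicate numbers were checked by another value, and Ifit1 goes against the former, so the SEs, p-values and directions given here hold only for the libraries as labelled.

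**Figure D4:**
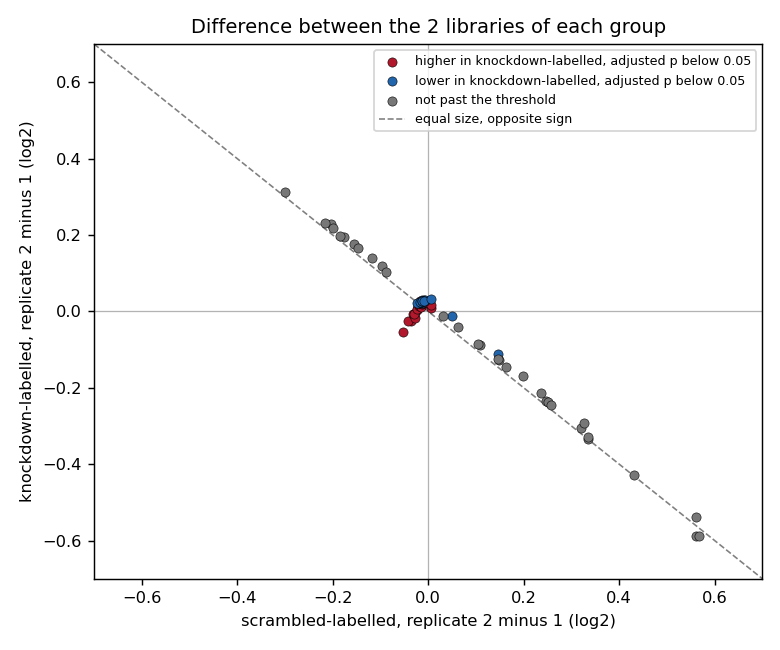
Difference between replicate 2 and replicate 1 on the log2 scale in the libraries labelled scrambled (x axis) and knockdown (y axis), with 1 point per gene. Genes past the threshold, other than Mrpl13, lie near the origin. Genes that did not pass spread along the dashed line of equal size and opposite sign.

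Direction also went with gene length. The exonic length of a gene in the GENCODE M21 annotation had a median of 1380.5 bases in the 78 genes and 2964 in all tested genes, and it was 1032.5 in those that rose, 2080 in those that fell and 1418 in those that did not pass. Of the 39 shorter genes (up to 1363 bases) 20 rose and 6 fell, and of the 39 longer ones (from 1398 bases) 8 rose and 13 fell. Spearman's rho between length and log2 change, as a description across genes that share their libraries, was -0.38 over the 78 and -0.41 over 8389 tested genes. With the lengths that the FPKM values themselves imply it was -0.20 over the 78 and -0.39 over 8683. Of all tested genes sorted by length into 10 bins, the bin of the shortest held 34 of the 78, and 438 of its 846 genes rose and 86 fell. With the trend of all tested genes on GENCODE length taken out, 22 of the 78 were higher and 25 lower, so the balance turned. Of the 47 genes past the threshold 40 passed there as well, in the same or the opposite direction. Mrpl2, Mrpl3, Mrpl20, Mrpl37, Mrps12, Mrps18c and Mrps25 did not pass. Of the 47, 9 changed sign: Mrpl2, Mrpl3, Mrpl14, Mrpl20, Mrpl37, Mrpl41, Mrpl48, Mrps10 and Mrps25. Among these 9, Mrpl14, Mrpl41, Mrpl48 and Mrps10 passed with the opposite sign, so their direction depended on the setting. Of the 8 largest increases and the 8 largest decreases none changed sign. The part of length in the changes was not tested.

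**Figure D5:**
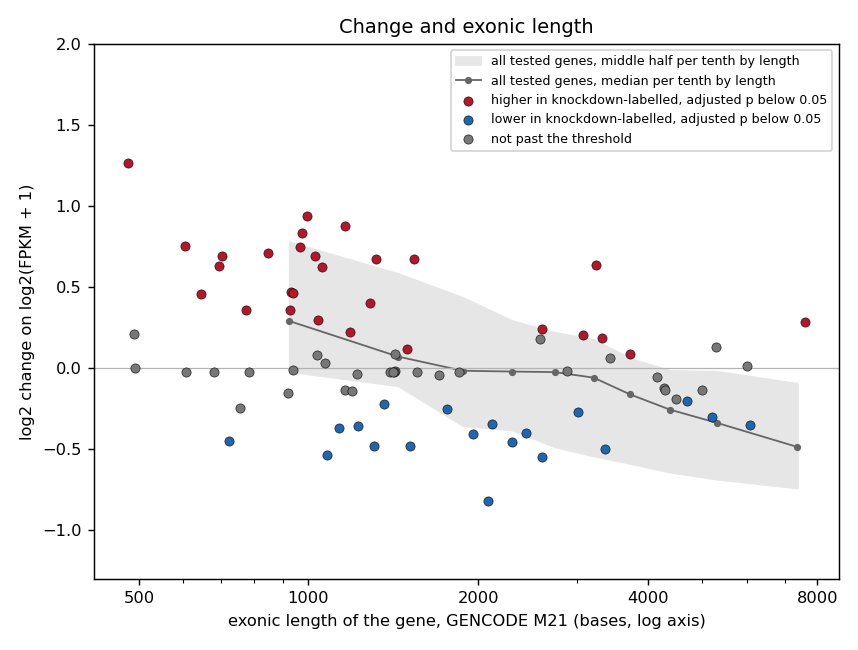
Log2 change of the 78 genes (y axis, on log2(FPKM + 1)) against the exonic length of the gene (x axis, bases, log scale), with a line and band for the median and the middle of all tested genes in each of 10 bins by length. The median of all tested genes falls from 0.29 in the bin of the shortest to -0.49 in that of the longest. Most members lie in the shorter bins, above and below that line.

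Of 5 genes for proteins of the mitochondrial ribosome with other names, 3 rose, 2 fell and 0 did not pass, with a median log2 change of 0.19. The shares were 60% higher and 40% lower, against 27.4% and 41.2% of all tested genes. Chchd1, of the small subunit, was at 301, 293, 608 and 595 FPKM, 2.03-fold higher (log2 1.02), and Aurkaip1, also of the small subunit, rose by 0.66. Ptcd3, a protein with RNA-binding repeats at the entry of the messenger RNA, was at 6.14, 5.98, 3.63 and 3.66 FPKM (log2 -0.60). Dap3, a GTP-binding protein of the small subunit, had a log2 change of -0.37 and Gadd45gip1, of the large subunit, one of 0.19. Among 30 genes for assembly of the ribosome and modification of its RNA, 12 rose (40.0%, against 27.4% of all tested genes), 10 fell (33.3%, against 41.2%) and 8 did not pass (median -0.02). Mtg1, a GTPase of large-subunit assembly, rose from 11.4 and 11.3 to 21.8 and 22.2 FPKM, and Malsu1, which keeps the subunits apart during assembly, 1.91-fold. Trmt61b, an RNA methyltransferase, rose by 0.62 on the log2 scale.

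The factors that work on the ribosome held some of the largest decreases. Of 14 tested factors of mitochondrial translation, 1 rose and 5 fell, and 8 did not pass, with a median log2 change of -0.04. The share that was lower, 35.7%, was under the 41.2% of all tested genes. Gfm1, the elongation factor that moves the ribosome along its messenger RNA, was at 11.6, 11.6, 2.81 and 2.85 FPKM (log2 -1.72, SE 0.02, adjusted p = 1.6e-04). Lrpprc, which stabilises mitochondrial messenger RNAs, was at 6.93, 6.78, 2.67 and 2.71 FPKM (log2 -1.09), and Mtrf1, a release factor, fell by 1.09. Of 17 tested aminoacyl-tRNA synthetases of mitochondria 4 rose (23.5%, against 27.4% of all tested genes), 8 fell (47.1%, against 41.2%) and 5 did not pass. The median log2 change of these 17 was 0.04. Gars, Hars2 and Kars had log2 changes of -1.06, -0.78 and -0.85, and Gars and Kars also serve the cytosol. The largest change of the list was an increase, in Lars2, which had 47.7, 45.6, 134 and 126 FPKM (log2 1.46, adjusted p = 1.9e-04) and was singled out once its values were known. Of 5 tested genes of mitochondrial transcription, Tefm and Tfb2m fell by 0.36 and 0.30, and Tfam, which packs mitochondrial DNA, rose by 0.36. In all, 2 of the 5 rose (40%, against 27.4% of all tested genes), 2 fell (40%, against 41.2%) and 1 did not pass.

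Regulators of nuclear genes for mitochondria had 2 of 10 tested genes higher (27.4% of all tested genes were), 6 lower (41.2% of all were) and 2 not past. The 2 that rose were Tfam, given above, and Esrra, a nuclear receptor of energy metabolism, at 22.3, 21.8, 41.1 and 40.8 FPKM (log2 0.86) and named after its values were seen. Myc was at 55.2, 55.5, 27.0 and 27.6 FPKM (log2 -0.99), and Pprc1, a coactivator related to PGC-1, at 5.90, 5.88, 2.62 and 2.67 FPKM (log2 -0.92). Sp1 fell by 0.94. Of the factors whose letters were searched above, Yy1 was at 14.0, 13.8, 6.48 and 6.59 FPKM (log2 -0.99) and is named here after its values were seen, as are Nrf1 and Gabpa. Nrf1 was at 5.55, 4.596, 4.49 and 5.49 FPKM and Gabpa at 8.24, 5.77, 5.401 and 7.66 FPKM, and neither passed. Of the messenger RNAs that mitochondrial ribosomes translate, 10 were in the table and 2 passed the filter: ND1, at 1.10 and 1.04 FPKM under the label scrambled, was 2.02-fold higher, and COX1 was lower, at 1.37, 1.21, 0.771 and 0.841 FPKM. Both rest on few fragments, 34, 39, 83 and 74 for ND1 and 68, 73, 47 and 47 for COX1. Cytosolic ribosomal protein genes, whose products translate the messenger RNAs of the nuclear genes above, had 38 of 80 higher (47.5%), 9 lower (11.2%) and 33 not past. Of all tested genes 27.4% were higher and 41.2% lower. The median log2 change of the cytosolic set was 0.18 beside -0.02 for the mitochondrial set. The difference between both sets was not tested, and reads of the cytosolic genes can be shared with their many pseudogenes.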

How the data were processed

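Polysome RNA of 4 libraries was measured. Per the labels' protocols, RNA was taken up in Trizol, messenger RNA was captured on beads, fragmented by heat and copied into cDNA for sequencing. The values are FPKM that the authors computed and deposited, 1 column per library, and 0 columns were left out. The submitters' processing notes name the builds GRCm38, mm10 and GRCm39 without their roles. The aligner, counting tool, strand setting and treatment of reads with several matches were not given in the sources used here.

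Genes with a mean of at least 1 FPKM were tested as log2(FPKM + 1) with limma 3.58.1 in R 4.3.3 (eBayes with trend, 2 libraries against 2, no batch term), with two-sided p-values, Benjamini-Hochberg adjustment over 8750 genes and a threshold of 0.05. Log2 changes on this scale understate the changes of low genes. The members, lists and tests were chosen with earlier results of these data known. The labels give replicates of one number a shared batch, so the numbers pair the libraries by label. Deviations of same-numbered libraries had r = -0.83 over 8750 genes, -0.99 over the 78 and -0.42 over the 47 past the threshold.

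FPKM values are whole fragments times a constant per library and gene. Solving for the smallest whole numbers (relative tolerance 3e-08) gave fragments and lengths for 15862 genes, 99.2% of tested genes and all 78 members. Tested on simulated data, 99.1% of 2065 genes were recovered up to a common divisor, so true numbers can be a multiple. Fragments cover counting error only. GENCODE M21 gave exonic lengths, as the union of a gene's exons. Genes were named by a rule: the 8 largest increases and decreases past the threshold, the 3 highest levels, the Mrps18 family and the 3 smallest p of each further list; other genes illustrate their role or are marked as chosen after their values were seen. Alternatives were other pseudocounts, filters and scalings, a replicate block, each library left out, length trends and a floor on the standard error. Python 3.11.15, numpy 2.4.6, pandas 2.3.3, scipy 1.17.1 and matplotlib 3.10.9 were used.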

Additional observations from a re-analysis of the deposited data

How the results depend on the processing

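The same 28 higher and 19 lower genes passed with a pseudocount of 0.1, without the filter, with a filter of 5 FPKM, without the trend in eBayes and with standard errors not below the counting error. Quantile normalization gave 27 and 19. The replicate block, pairing libraries by batch, gave 26 and 18, and besides Mrpl13, Mrpl35 and Mrpl37 it changed no call. A block of the crossed numbers, added after seeing the data, gave 34 higher and 30 lower genes, 82.1% past the threshold against 82.8% of all tested genes. Leaving out 1 library gave 25 to 27 higher and 18 to 19 lower genes, with a median log2 change from -0.0422 to 0.112. Without scrambled 2 the median was 0.11 and without knockdown 2 it was 0.10. Centring gave a median of 0.15 and took Mrpl3, Mrpl13, Mrpl21, Mrpl32, Mrpl48 and Mrpl49 out of the lower genes.

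Genes that did not pass changed sign with the libraries used. Leaving out 1 library gave -0.0412 to 0.205 for Mrps18a, -0.29 to 0.30 for Mrps21, -0.24 to 0.19 for Mrpl34, -0.30 to 0.26 for Mrpl42 and -0.31 to 0.28 for Mrpl57. Centring gave 0.15 for Mrpl34, 0.15 for Mrpl42 and 0.15 for Mrpl57. Quantile normalization gave 4.5e-05 for Mrpl57 and -0.0705 for Mrps21.

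The file lists no gene length, so the planned removal of a length trend was not run as written, and 2 forms of it were added after seeing the data. With recovered lengths, 25 were higher and 23 lower. Mrpl2, Mrpl20, Mrpl37, Mrpl48, Mrps18c, Mrps25 and Mrps30 no longer passed. Of the 47 genes past the threshold in the main setting, 4 changed sign, and of these Mrpl3 passed in the opposite direction. The log2 change was 0.0803 for Mrpl3, -0.0626 for Mrpl37, 0.0504 for Mrpl48, 0.0379 for Mrpl57, -0.27 for Mrps18a, -0.0301 for Mrps18c and -0.49 for Mrps21. With GENCODE lengths the median was -0.0817. The log2 change was then -0.0899 for Mrpl14, -0.0574 for Mrpl2, -0.0494 for Mrpl20, 0.0341 for Mrpl3, -0.0641 for Mrpl37, -0.12 for Mrpl41, 0.0934 for Mrpl48, 0.0740 for Mrpl57, -0.0736 for Mrps10, -0.28 for Mrps18a, -0.62 for Mrps21 and 0.0278 for Mrps25. Recovered and annotated lengths can differ much, as for Mrpl14 (7525 and 645 bases). The cause of these shifts was not tested beyond the construction of each setting.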
